A study of Mus musculus with 6 samples.

Results

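Cytosolic ribosomal proteins are the protein parts of the ribosome that translates messenger RNA in the cytoplasm, here followed in microglia, the resident macrophages of the brain. The members were the 84 of 14148 genes in the deposited table whose symbol begins with Rpl, Rps or Rplp followed by a digit, with Rpsa and Fau added and the Rps6k kinases (9 genes) and symbols marked -ps (4 genes) left out. Of the 84, 49 carry large-subunit symbols and 34 small-subunit symbols (Rpsa and Fau among them). The remaining 1, Rps19bp1, matches by spelling but encodes a protein that binds the ribosomal protein Rps19, so it is reported apart from the subunits.

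The cells came from male C57BL/6 mice of 18 months, with no genetic change or treatment named in the labels. Each sample pooled the hippocampi of 3 mice, live CD11b+CD45lo cells were stained with BODIPY, a dye for neutral lipid, and about 10000 cells were sorted per sample. The lipid droplet-low group (LD-low) held the BODIPY-low cells and the lipid droplet-high group (LD-high) the BODIPY-high cells, with 3 libraries in each. Nothing in the labels says whether pools were made of different mice, so p-values measure the spread between these libraries, which may in part be technical. All 8 microglial markers on the list were present, with summed levels of 1434770 to 1677020 normalized counts in LD-low and 1398400 to 1607820 in LD-high libraries.

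Libraries held between 15895576 and 38489448 reads in genes, the fewest in LD-high replicate 3. Summed neutrophil markers (7 of 8 in the table) ran from 1222 to 4563 normalized counts in LD-low libraries and were 0 in all LD-high libraries. Choroid plexus markers (8 of 8) ran from 364 to 1807 in LD-low and from 1700 to 5585 in LD-high libraries. Border macrophage markers (9 of 9) ran from 269 to 578 in LD-low and from 169 to 431 in LD-high libraries. Summed oligodendrocyte (6 of 6), astrocyte (6 of 6) and neuron markers (3 of 6) were higher in each LD-high than in each LD-low library. They ran from 4641 to 4894 against 5452 to 6013, from 6466 to 7795 against 7949 to 8855, and from 37.9 to 67.8 against 73.0 to 96.3 normalized counts. The part of these cells in the values that follow was not tested. In such bulk samples, fewer cells of a type and less RNA per cell cannot be told apart.

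As background, a ribosome joins a small subunit, which reads the messenger RNA, with a large subunit, which forms the peptide bonds, and each carries its own set of proteins. The mRNAs of these proteins typically begin with a 5′ terminal oligopyrimidine (TOP) tract, a run of C and T letters through which the mTORC1 kinase and the RNA-binding protein Larp1 adjust their translation together. This control is known to act largely on translation, which a count of mRNA does not measure.

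Most of the starts shown were picked because they carry this shared feature, which the choice by symbol did not use. They therefore do not give its share among the members. RefSeq gene starts (table of build GRCm38.p6) were given for 63 of the 84 members, and each sequence was placed on NCBIM37, the mm9 build of the deposited data, by an exact match. Each line gives the 20 bases before and the 20 bases from the start, 5′ to 3′ on the transcribed strand, with the longest run of C and T in capitals where it has at least 7 letters and lies inside the stretch.
Rpl7a, chr2:26766307-26766346, plus strand: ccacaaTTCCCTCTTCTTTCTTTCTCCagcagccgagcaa
Fau, chr19:6057927-6057966, plus strand: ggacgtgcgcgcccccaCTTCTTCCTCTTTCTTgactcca
Rpl15, chr14:19103481-19103520, minus strand: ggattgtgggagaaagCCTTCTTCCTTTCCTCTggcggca
Rpl13a, chr7:52384096-52384135, minus strand: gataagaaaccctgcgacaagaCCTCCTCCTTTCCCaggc
Rps10, chr17:27772170-27772209, minus strand: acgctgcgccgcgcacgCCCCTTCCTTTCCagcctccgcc
Rplp2, chr7:148633530-148633569, plus strand: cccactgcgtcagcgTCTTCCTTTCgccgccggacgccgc
Rps6, chr4:86503252-86503291, minus strand: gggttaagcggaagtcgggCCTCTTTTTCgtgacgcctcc
Rps3, chr7:106632200-106632239, minus strand: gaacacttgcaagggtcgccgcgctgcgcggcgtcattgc
Rpl7l1, chr17:46919586-46919625, minus strand: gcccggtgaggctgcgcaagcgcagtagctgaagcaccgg

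The first 7 of these stretches hold a tract across or next to the start, while Rps3 and Rpl7l1 have no run of at least 7 letters there. Over the 25 bases before to 50 bases after the start, searched on the transcribed strand alone, 52 of the 63 members (82.5%) had a run of at least 7 C or T letters at 1 or more of their starts. The share was 43.8% for all 27025 genes in the table, and the median longest run was 10 letters for members and 6 for all genes. The search also counted runs away from the start, such as those of Rpl10 and Rpl41, which begin 40 bases after it. A tract at the start itself was therefore less common than these shares. A run is a description of the sequence and no proof of a TOP mRNA.

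Reads counted in ribosomal protein genes were a small fraction of the reads in genes. Because reads that match several places equally well are not counted, the share of these mRNAs themselves is uncertain (copies are described below). All 84 members together held 0.266%, 0.281% and 0.275% of the reads in genes in LD-low replicates 1, 2 and 3, and 0.286%, 0.293% and 0.251% in LD-high replicates 1, 2 and 3. The 2 highest shares were LD-high libraries, but the lowest of all was LD-high replicate 3, so the groups overlapped. The difference of the means, 0.274% ± 0.008 against 0.277% ± 0.023 (SD, n = 3 each), gave p = 0.9 in a 2-sided exact permutation test, whose smallest possible p is 0.1. Its sign turned without LD-low replicate 1, LD-high replicate 1 or LD-high replicate 2.

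Levels spanned a wide range within the family. Of the 84 members, 81 reached at least 10 normalized counts in at least 3 libraries and were tested, with means from 20.1 (Rpl34) to 4801 (Rpl4, a core protein of the large subunit) normalized counts. By counted reads, Rpl4 was the most abundant member and ranked 980 of 14148 genes. The median member had 575 normalized counts against 436 for all genes, with the same limit from copied sequences. Per kilobase of coding sequence, the 80 tested members with an annotated transcript ran from 56.7 (Rpl34) to 6141 (Rpl7l1) with a median of 1205 normalized counts. Rps9 (4577 per kb) was also among the 3 highest, and the lowest after Rpl34 were Rps21 (355 per kb) and Rpl22l1 (357 per kb). Members with longer coding sequences also had higher levels per kilobase (Spearman's rho 0.48 over 83 members, a description across genes of the same libraries).

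**Figure D1:**
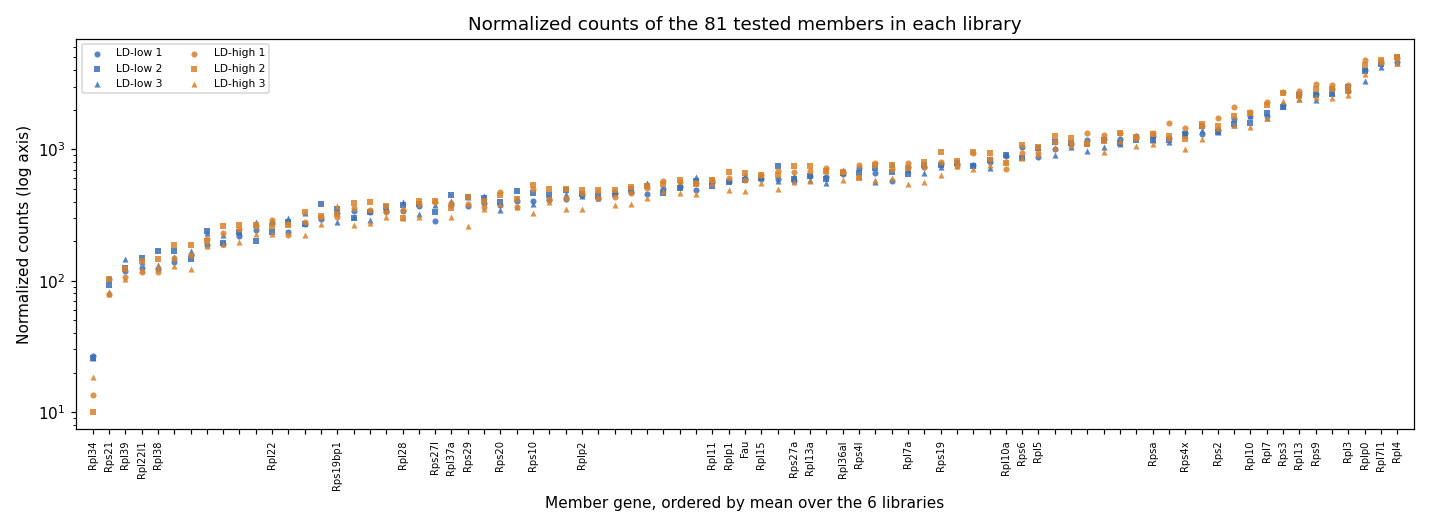
Normalized counts (log axis) of the 81 tested members in each of the 6 libraries, 1 column per gene in order of the mean, labelled where the text names it; blue points are LD-low and orange points LD-high libraries, with a marker shape for each replicate. Values run from 20.1 (Rpl34) to 4801 (Rpl4) on average, and the colours overlap for all but 7 of the genes.

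The 3 members below the filter were Rpl30, Rps27 and Rpl39l. Rps27, a zinc-finger protein of the small subunit, had 7, 4 and 5 reads in LD-low and 2, 2 and 1 reads in LD-high replicates 1, 2 and 3. Rpl30, a large-subunit protein, had 4, 1 and 7 reads in LD-low and 1, 1 and 0 reads in LD-high libraries. Rpl39l, a paralog of Rpl39, had 4, 0 and 0 reads in LD-low and 6, 5 and 1 reads in LD-high libraries. These counts are near or under the 3 reads per library that a count of 0 allows (counting error only), so no fold is given.

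Near-identical copies of the coding sequence, at least 98% identical over at least 90% of its length, were found elsewhere in NCBIM37 for 66 of 83 members, 237 copies in all. For 25 members, every stretch of 100 bases, the read length, had an exact copy elsewhere. The kit used here does not mark strand, so reads of overlapping genes on the other strand are not told apart. Read pairs that match several places equally well cannot be assigned to 1 place, and the gene counting of STAR leaves them out. Pairs that reach past a copied stretch can still be placed. The share of reads lost was not measured, so the levels of these members are uncertain. Rps27 (chromosome 3, 90016593 to 90017573, minus strand) had an identical copy of its whole coding sequence at chr9:114891571-114891825, and Rpl30 had 6 near-identical copies. Rps27l (chromosome 9, 66793893 to 66797323, plus strand), a paralog of Rps27 with a coding sequence of the same length, had no near-identical copy and was present at 366 normalized counts on average. The coding sequences of both are shown because the 2 genes differ so widely in level; they differ at 61 of 255 bases, in capitals, and are 76.1% identical.
Rps27: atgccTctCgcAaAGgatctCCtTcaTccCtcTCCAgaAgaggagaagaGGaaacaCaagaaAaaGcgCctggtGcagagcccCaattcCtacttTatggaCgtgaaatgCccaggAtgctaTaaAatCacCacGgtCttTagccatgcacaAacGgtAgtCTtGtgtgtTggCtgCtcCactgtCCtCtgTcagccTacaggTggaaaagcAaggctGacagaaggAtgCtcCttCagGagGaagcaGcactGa
Rps27l: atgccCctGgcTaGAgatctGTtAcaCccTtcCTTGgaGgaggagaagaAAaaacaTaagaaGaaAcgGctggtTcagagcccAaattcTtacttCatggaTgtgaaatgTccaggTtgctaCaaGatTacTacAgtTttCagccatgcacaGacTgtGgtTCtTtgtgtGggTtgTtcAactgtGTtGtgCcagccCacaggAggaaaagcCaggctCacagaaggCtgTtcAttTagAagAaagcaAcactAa

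Across members, the level per kilobase was only weakly related to the share of 100-base stretches with a copy (Spearman's rho -0.18 over 83 members). Rpl13, with every stretch copied, had 4033 normalized counts per kb, close to Rplp0 (4213 per kb) with 27.0% copied. Rpl39l, with none copied, had 15.5 per kb. The stretches cover coding sequence alone, and the part of copies in the levels was not tested.

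**Figure D2:**
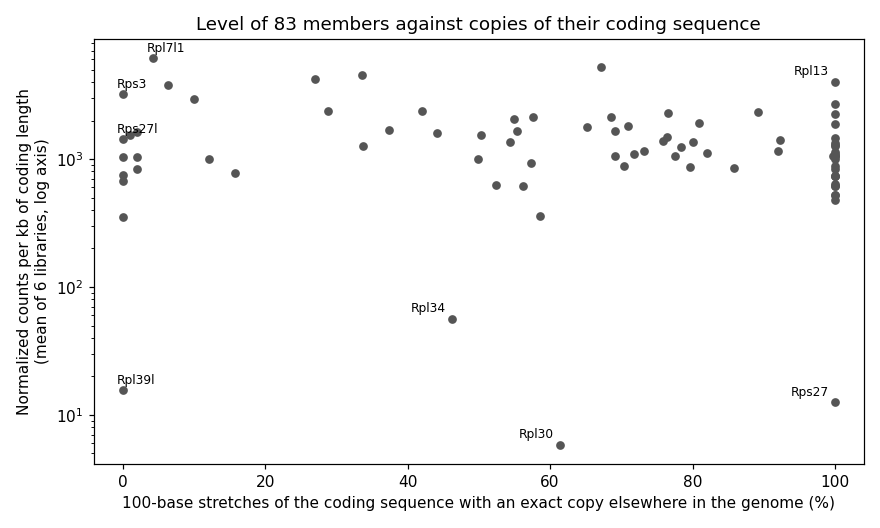
Normalized counts per kilobase of coding length (mean of 6 libraries, log axis) against the percent of 100-base stretches of the coding sequence with an exact copy elsewhere in the NCBIM37 genome, 1 point per member (83 members). Rps27 and Rpl30 lie far below the other members with many copied stretches, and Rpl39l lies low with none.

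Setting the LD-high beside the LD-low libraries asks whether microglia that hold many lipid droplets differ in these transcripts from those that hold few. None of the 81 tested members passed limma's test at an adjusted p of 0.05, where 3.36% of all 11624 tested genes did (1.53% higher and 1.82% lower in LD-high). At an unadjusted p of 0.05, 6 members (7.41%) passed, against 19.8% of all tested genes. EdgeR's quasi-likelihood test on the recovered reads called 0 members (3.24% of all genes) and DESeq2 called 1 (6.27% of all genes), Rps3, higher in LD-high with an adjusted p of 0.0392. The log2 changes on the scale of log2(normalized count + 1) ran from -0.90 (Rpl34) to 0.29 (Rps27l), and 80 of the 81 lay within 0.3 of 0. The 95% interval of the difference lay within a 1.5-fold change in either direction for 79 members. The exceptions were Rpl34 and Rpl39, the latter named after its values were seen.

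The values of the groups did not overlap for 7 of 81 tested members (8.64%), against 24.3% of all tested genes. For 5 of them all LD-high libraries lay above all LD-low libraries (12.7% of all tested genes), and for 2 they lay below (11.7%). The members' median log2 change was 0.01, with 44 of 81 above 0, beside a median of -0.01 over all tested genes. With equal library totals the members' median was -0.03 with 32 above 0, beside -0.05 over all genes, so the sign of the family's median depended on the scaling.

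**Figure D3:**
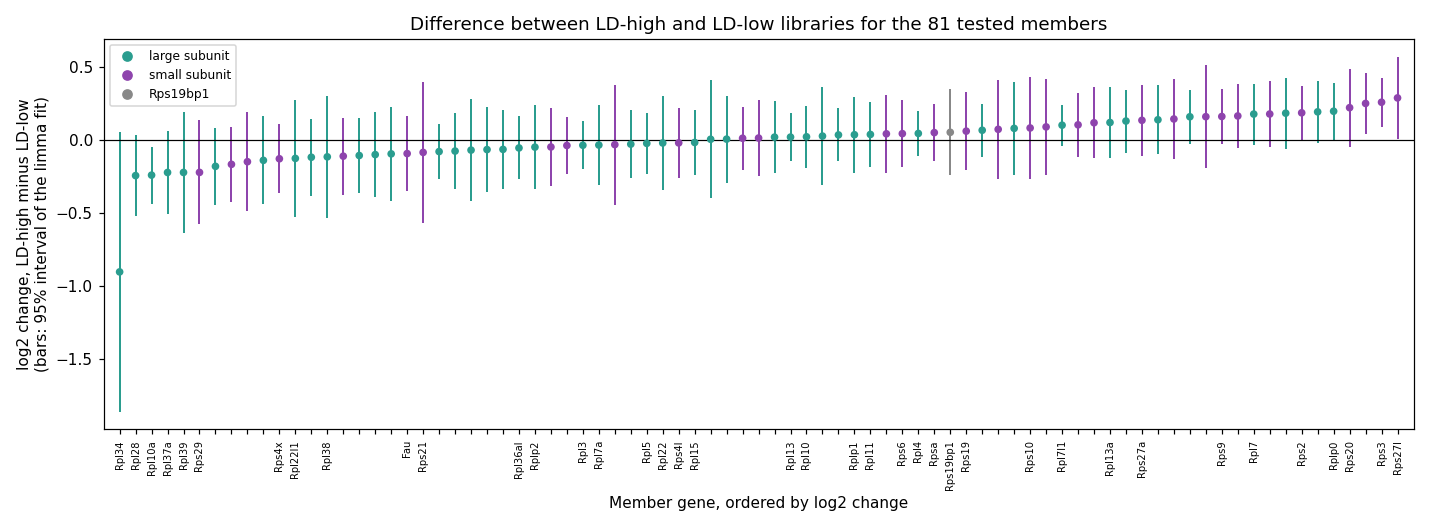
log2 change (LD-high minus LD-low) of the 81 tested members with its 95% interval from the limma fit, in order of size; green marks large-subunit, purple small-subunit members and grey Rps19bp1. All but Rpl34 (-0.90) lie between -0.24 and 0.29, and no member passed the adjusted test.

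In the small subunit, Rps3 (chromosome 7, 106626406 to 106632248, minus strand, NCBIM37), a protein at the mRNA entry site that also acts in DNA repair, stood highest by p. It had 2180, 2105 and 2130 normalized counts in LD-low and 2716, 2661 and 2312 in LD-high replicates 1, 2 and 3. All LD-high values lay above all LD-low values, with a log2 change of 0.26 ± 0.08 (SE) and an adjusted p of 0.0835 in limma. Rps2, singled out after its values were seen because its groups did not overlap either, had 1391, 1360 and 1351 in LD-low and 1741, 1498 and 1441 normalized counts in LD-high libraries, with a log2 change of 0.19 ± 0.09 (limma's adjusted p 0.250).

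The paralog Rps27l, known as a target of p53, had 283, 335 and 376 normalized counts in LD-low and 394, 402 and 409 in LD-high libraries. It had the highest log2 change of the family, 0.29 ± 0.13, with a limma adjusted p of 0.243. Rps20, a protein of the head of the small subunit, had 373, 399 and 347 normalized counts in LD-low and 471, 451 and 386 in LD-high libraries, where LD-high replicate 3 lay within the LD-low range (0.22 ± 0.12, limma's adjusted p 0.346). Of the 33 tested small-subunit members, 22 had a log2 change above 0 and the median was 0.06. The median was 0.02 with equal totals and -0.02 without LD-high replicate 2.

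Rps6, whose phosphorylation by the S6 kinases is a common readout of mTORC1 activity, had 1046, 856 and 890 normalized counts in LD-low and 935, 1078 and 865 in LD-high libraries. These values were intermixed, with a log2 change of 0.04 ± 0.11. Rps19, a gene mutated in Diamond-Blackfan anaemia, had a log2 change of 0.06 ± 0.13 and the X-linked Rps4x one of -0.13 ± 0.11. Rpsa, which also serves as a laminin receptor, had 0.05 ± 0.09. Of the members with a mean of at least 50, Rps10 and Rps29 varied most between libraries of a group, and in both LD-high replicate 3 was the lowest: Rps29 had 381, 436 and 262 and Rps10 495, 531 and 327 normalized counts in LD-high replicates 1, 2 and 3.

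The members made as fusions with a ubiquitin-like or ubiquitin part, Fau and Rps27a, had log2 changes of -0.09 ± 0.12 and 0.13 ± 0.11, with overlapping groups. None of 14 tested genes of the Diamond-Blackfan anaemia list, all of them members, passed limma's test (3.36% of all tested genes did). Their median log2 change was -0.01.

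In the large subunit, Rpl10a (chromosome 17, 28465416 to 28467977, plus strand, NCBIM37), a protein of the flexible L1 stalk, had the smallest p. It had 893, 903 and 920 normalized counts in LD-low and 714, 781 and 808 in LD-high replicates 1, 2 and 3. All LD-high values lay below all LD-low values, with a log2 change of -0.24 ± 0.09 and a limma adjusted p of 0.163. Rpl34 (chromosome 3, 130429749 to 130433316, minus strand) had 38, 24 and 28 reads in LD-low and 18, 9 and 11 reads in LD-high libraries, or 26.7, 26.0 and 26.0 against 13.4, 10.1 and 18.4 normalized counts. Its groups did not overlap either, and its log2 change of -0.90 ± 0.45 had an interval from -1.86 to 0.05. Rpl34 also had 3 near-identical copies, with 46.3% of its 100-base stretches copied.

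Rpl28 had a log2 change of -0.24 ± 0.13 and Rpl37a one of -0.22 ± 0.13, both with overlapping groups. Rpl7l1, a paralog of Rpl7 known to act in ribosome assembly, had 4557, 4421 and 4199 normalized counts in LD-low and 4709, 4784 and 4633 in LD-high libraries. Its groups did not overlap, but the difference was small (log2 change 0.10 ± 0.07, limma's adjusted p 0.409), and it varied least of the tested members within groups. The other paralogs, Rpl22l1 and Rpl36al of the large subunit and Rps4l of the small subunit, had log2 changes of -0.13 ± 0.19, -0.05 ± 0.10 and -0.02 ± 0.11.

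The P-stalk, which recruits the translation factors that use GTP, is built on Rplp0 with Rplp1 and Rplp2. Rplp0 had 3978, 3931 and 3321 normalized counts in LD-low and 4746, 4378 and 3760 in LD-high libraries. LD-high replicates 1 and 2 were the highest of the 6 and LD-low replicate 3 the lowest, but the groups overlapped, with a log2 change of 0.20 ± 0.09 and a limma adjusted p of 0.253. Rplp1 and Rplp2 had log2 changes of 0.04 ± 0.12 and -0.05 ± 0.13. Rpl5 and Rpl11, which bind the 5S ribosomal RNA and can restrain the p53 regulator Mdm2, had -0.02 ± 0.10 and 0.04 ± 0.10. Rpl10, Rpl13a, Rpl3, Rpl22 and Rpl38 had log2 changes between -0.12 and 0.12, all with overlapping groups. Of 47 tested large-subunit members, 21 had a log2 change above 0 and the median was -0.02. It was 0.07 without LD-high replicate 3, and negative with equal totals, TMM factors and quantile normalization. Rps19bp1, the member that is no ribosomal protein, had 0.05 ± 0.14.

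Reads in large-subunit genes were 1.85, 1.86 and 1.85 times those in small-subunit genes in LD-low replicates 1, 2 and 3, and 1.78, 1.75 and 1.85 times in LD-high replicates 1, 2 and 3. Large-subunit genes were taken by symbol and include Rpl7l1 (4551 normalized counts on average), and the ratio without it was not computed. All LD-high ratios lay below all LD-low ratios, LD-high replicate 3 by a narrow margin (1.846 against 1.847 in LD-low replicate 3). The means were 1.853 ± 0.009 and 1.793 ± 0.049 (SD, n = 3 each), a difference of -0.061. The 2-sided exact permutation test gave p = 0.1, the smallest it can give with 3 libraries in each group, and 0.2 when adjusted over the 2 sums tested (the share of reads and this ratio).

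LD-high replicate 3 had the lowest of the 6 values for 48 of the 81 tested members (59.3%), against 16.5% of all tested genes. With equal totals it was lowest for 49 members, a scaling for which the share over all genes was not computed. The members' median deviation from their own mean on the log2 scale was -0.16 in LD-high replicate 3, 0.07 in LD-high replicate 1 and 0.11 in LD-high replicate 2. In LD-low replicates 1, 2 and 3 it was -0.02, 0.01 and -0.01. LD-high replicate 3 was also the library with the fewest reads (15895576), whose part in this was not tested.

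**Figure D4:**
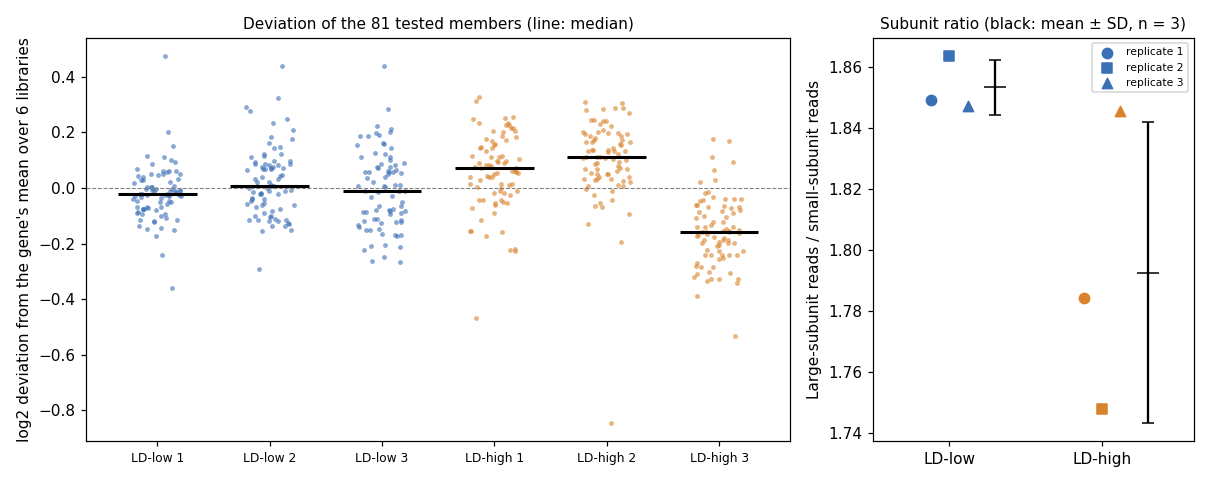
Left, log2 deviation of each of the 81 tested members from its mean over the 6 libraries, 1 point per gene and a black line at the median: the medians are 0.07 and 0.11 in LD-high replicates 1 and 2 and -0.16 in LD-high replicate 3. Right, the ratio of large-subunit to small-subunit reads per library with the mean ± SD (n = 3) in black, on an axis that does not start at 0: its mean is 1.853 for LD-low and 1.793 for LD-high.

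Without LD-high replicate 3, 61 of 81 members had a log2 change above 0 and their median was 0.10, beside a median of -0.0027 over all tested genes. Then 28 of 33 small-subunit and 33 of 47 large-subunit members lay above 0. Still no member passed limma's test (0.772% of all tested genes did), while 16 had an unadjusted p under 0.05 (19.8% of the members, against 17.3% of all tested genes). The lowest adjusted p was 0.0722, that of Rps3. Without LD-high replicate 2 the median was -0.05 and 31 members lay above 0. So the direction of the family's median rested on single LD-high libraries.

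When each library was centred on the members' own median, which leaves differences between the members, 0 of 81 passed limma's test (1.29% of all genes) and 0 had an unadjusted p under 0.05. In that fit 9.69% of all tested genes had an unadjusted p under 0.05, against 19.8% without the centring. The same shift was applied to all genes, whose spread within groups enters limma's variance estimate for the members. Rps3 kept a log2 change of 0.26, but its adjusted p in limma was 0.586 here and 0.0835 without the centring. For this reason the count of 0 cannot decide whether members differ among themselves.

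Members with longer coding sequences tended to have higher log2 changes (Spearman's rho 0.42 over 80 members, which share the same 6 libraries). The 40 members with coding sequences up to 465 bases had a median log2 change of -0.05 with 17 above 0, and the 40 longer ones a median of 0.04 with 27 above 0. Over all 11060 tested genes with a coding length the rho was -0.08. The members' rho was 0.33 after a correction of each library for transcript length and 0.31 without LD-high replicate 3. The log2 change followed the mean level of the members to a like degree (rho 0.43 over 81 members), and level itself followed coding length (rho 0.82 over 83 members), so the 2 cannot be told apart here. Single libraries differed in this slope within a group: the rho of the deviation with coding length was 0.49, -0.24 and 0.36 in LD-high replicates 1, 2 and 3, and 0.19, -0.34 and -0.43 in LD-low replicates 1, 2 and 3.

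**Figure D5:**
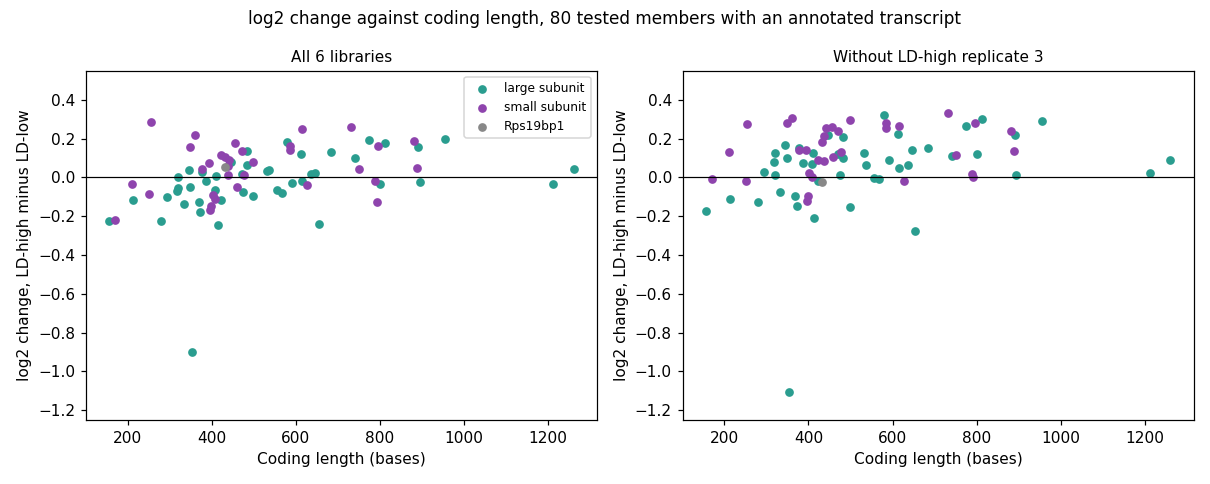
log2 change (LD-high minus LD-low) against coding length in bases for the 80 tested members with an annotated transcript, with all 6 libraries (left) and without LD-high replicate 3 (right); green marks large-subunit, purple small-subunit members and grey Rps19bp1. Longer members lie higher in both panels (Spearman's rho 0.42 and 0.31), and the whole cloud sits higher on the right (median 0.10 against 0.01).

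Other genes of protein synthesis were read from lists of the same pathway. Over all tested genes, 3.36% passed limma's test and 19.8% had an unadjusted p under 0.05. Of 20 tested other mRNAs with a TOP tract, 0 passed limma's test, 2 had an unadjusted p under 0.05 and the median log2 change was 0.02. Among them the elongation factor genes Eef1a1 and Eef2 had 0.14 ± 0.09 and 0.11 ± 0.08, and Gnb2l1, which encodes the small-subunit scaffold Rack1, 0.01 ± 0.09. Gas5, a non-coding host of small nucleolar RNAs that begins with a TOP tract, had 890, 1064 and 1377 normalized counts in LD-low and 629, 889 and 880 in LD-high replicates 1, 2 and 3. It had a log2 change of -0.47 ± 0.15 with a limma adjusted p of 0.107. All LD-high values lay below all LD-low values for Gas5, by less than 1 normalized count for LD-high replicate 2, and it was called without LD-low replicate 1 (limma's adjusted p 0.0411) and by DESeq2 (adjusted p 0.0396).

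None of 42 tested ribosome biogenesis genes passed limma's test, against 3.36% of all tested genes. Of the 42, 4 had an unadjusted p under 0.05 (19.8% of all tested genes did), and the median was -0.04. Their smallest p was that of Rrn3, a factor of RNA polymerase I (0.23 ± 0.09, limma's adjusted p 0.155). None of 19 ribosome quality control and dormancy genes passed either (3 unadjusted, median 0.06), with the smallest p for Gcn1l1, which senses collided ribosomes (0.20 ± 0.07, limma's adjusted p 0.145). With a correction for transcript length Gcn1l1 passed limma's test (log2 change 0.25, adjusted p 0.0455). Of 77 mitochondrial ribosomal protein genes, 0 passed limma's test, 3 had an unadjusted p under 0.05 and 41 lay above 0 (median 0.00), with the smallest p for Mrpl20 (0.28 ± 0.12, limma's adjusted p 0.193).

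On the list of mTORC1 and TOP mRNA control, 1 of 37 tested genes fell, 0 rose and 36 did not pass, beside 1.82% lower and 1.53% higher over all tested genes. Of the 37, 10 had an unadjusted p under 0.05 (19.8% of all tested genes did), and the median was 0.05. The gene that fell was Rps6kb1, which encodes an S6 kinase that phosphorylates Rps6. It had 1262, 1410 and 1411 normalized counts in LD-low and 1003, 1061 and 1040 in LD-high replicates 1, 2 and 3, without overlap. Its log2 change was -0.39 ± 0.08 with a limma adjusted p of 0.0250. The call was lost without LD-low replicate 2 (limma's adjusted p 0.104), LD-low replicate 3 (0.110), LD-high replicate 1 (0.0544) or LD-high replicate 3 (0.0727), and without limma's trend (0.163). In these settings the log2 change of Rps6kb1 lay between -0.40 and -0.37. Rps6kb2, which encodes a second S6 kinase, was singled out after its values were seen. It had a log2 change of -0.49 ± 0.15 but did not pass (limma's adjusted p 0.0891). The neutrophil markers (6 of 6 tested lower) and choroid plexus markers (3 of 6 tested higher) also changed between these groups, and the oligodendrocyte, astrocyte and neuron sums did not overlap; their part in it was not tested.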

How the data were processed

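Messenger RNA was amplified from sorted microglia with Smart-seq v4 and Nextera XT and sequenced as paired reads of 100 bases, per the labels' protocols. Reads were mapped to mm9 with STAR 2.5.1b and counted with its gene counting, per the series' design text; DESeq2 is named there without a version. For the gene annotation, strand setting and row filter of the table, nothing was found in the labels or headers. The values the authors deposited are normalized counts, a signal in which each library's counts are divided by a size factor. Whole reads were recovered for 100% of values within a tolerance of 0.01.

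Genes with at least 10 normalized counts in at least 3 libraries (11624) were tested with limma 3.58.1 (R 4.3.3, trend, 2-sided, all 6 libraries, no covariate) on log2(normalized count + 1), so that the change of low genes is understated. P-values were adjusted by Benjamini-Hochberg over all tested genes, with a threshold of 0.05. EdgeR 4.0.16 and DESeq2 1.42.0 were run on the recovered reads as alternatives, beside other scalings, filters, pseudocounts, a replicate block and leaving out each library. Group differences in summed reads used exact permutation tests (scipy 1.17.1). Gene positions and coding lengths came from GENCODE vM1 on NCBIM37 (83 of 84 members matched), and copies were searched with blastn 2.17.0. The scripts were tested on simulated data.

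Members named were the extremes of log2 change (4 in each direction), of level per kilobase (3 each) and of spread (2 each), the paralogs, and a fixed set of well-known members. Of each other list, those past the threshold or else the smallest p were named, with Gnb2l1, Eef1a1 and Eef2. Some genes that this rule names are not reported here, and figures label only genes named in the text. The members and lists were chosen with earlier results of these data known.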

Additional observations from a re-analysis of the deposited data

How the results depend on the processing

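The count of ribosomal protein genes past the threshold was 0 in the main analysis, 1 with DESeq2, 1 at a threshold of 0.1 (Rps3 in both) and 0 when any library was left out (0 to 0). On the other protein synthesis lists (20, 42, 37 and 19 tested genes), the number called was 1. It became 0 without limma's trend, 2 with a correction for transcript length, 4 with DESeq2, and 0 to 4 when a library was left out. Over all tested genes, 3.36% were called in the main analysis, 0.129% without limma's trend, 3.74% with the length correction and 6.27% with DESeq2. That share was 7.05% at a threshold of 0.1, and 0.375% to 3.54% when a library was left out. The group difference in the share of reads in ribosomal protein genes, 0.00315 percentage points, ranged from -0.00516 to 0.0161 when a library was left out, and turned sign without LD-low replicate 1 (-0.000846), LD-high replicate 1 (-0.00152) or LD-high replicate 2 (-0.00516). The group difference in the ratio of large-subunit to small-subunit reads kept its direction, from -0.0872 to -0.0385. The cause was not tested. Of 892 values of 43 named genes under these alternatives, 879 kept their side of the threshold, 8 passed it newly and 5 no longer passed it. The sign of 44 values, in 20 genes, differed from the main one, all of them on values that did not pass the test and lay within 0.13 of 0 on the log2 scale.

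Same-numbered libraries of the groups had correlated deviations (0.161, 0.132 and 0.0641), and each library correlated best with its own number, a hint from the data only; the labels do not say that numbers mark pairs, so they were not taken as pairs. With the replicate number as a block, 2 ribosomal protein genes were called, Rps3 (limma's adjusted p 0.0258) and Rplp0 (0.0434), both higher in LD-high, and 9 genes on the other lists, among them Gas5 (0.00511) and Gcn1l1 (0.0486), while calls over all genes went from 390 to 1090 (9.38%).

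With 3 libraries in each group the exact tests cannot go below 0.1. Members with few reads, such as Rpl34, are limited by depth, and members with exact copies by reads that map to several places.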
